A study of Mus musculus with 11 samples.

Results

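The plasma protein genes examined here encode secreted carriers, coagulation factors, serpins, inter-alpha-trypsin inhibitor heavy chains and complement components. The set was chosen with earlier results of these data known. It was given as a list of 44 gene symbols, and the matching by symbol to the deposited table used no measured value. Of these, 41 are among the 15061 genes of the table, and Ahsg, F12 and Serpina6 were not analysed here. The low-count filter kept 40 of the 41 among 14671 genes tested, and C4b did not pass it. RNA was taken from mouse yolk sac at embryonic day 9.5 and sequenced in bulk. The 3 H1CKO libraries (H1CKO 5 to 7) are Hand1 fx/fx with T-Cre +/-, in which Cre recombinase is driven by the T gene (brachyury) of primitive streak and early mesoderm. The 4 H1H2H2 libraries (H1H2H2 8 to 11) are Hand1 H2/H2, in which the Hand1 alleles carry Hand2 in their place. The 4 control libraries (control 1 to 4) are Hand1 fx/+ in the genotype label and WT in their descriptions, so whether they share a floxed allele with H1CKO is not settled by the labels. A Cre is named only in the H1CKO labels, and what it does by itself cannot be told apart from what Hand1 loss does. T-Cre acts mainly in mesoderm, whereas many of the plasma protein genes are known as genes of the overlying endoderm.

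In the mouse conceptus the visceral endoderm of the yolk sac makes serum proteins before the liver does, and it takes up and transports nutrients and lipids. Most of these proteins are later made by hepatocytes under the transcription factors HNF1, HNF4 and C/EBP, which are also expressed in visceral endoderm. Coagulation proceeds through a chain of proteases that ends with thrombin cutting fibrinogen to fibrin. Antithrombin and the protein C system hold it back, and plasmin dissolves the clot. Complement is a second chain of plasma proteases, started by C1, by lectin-bound MASP proteases or by factor B, and held in check by factor I.

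RefSeq promoters (GRCm38.p6, from 250 bases before the gene's start) were found for 31 of the 41 members. The letters GTTAAT, an HNF1 half-site, or ATTAAC, its reverse complement on the other strand, occurred in 12 of the 31 (38.7%) and in 7.49% of 27025 genes. The C/EBP letters TTGCNNAA on either strand occurred in 11 of the 31 (35.5%) and in 10.8% of all genes. The HNF4 letters CAAAGTCCA occurred in 0 of the 31 and in 0.451% of all genes, and TATAAA in 4 of the 31 (12.9%) and 14.3% of all genes. A match of letters describes the sequence and is not evidence that a factor binds. The 250 bases before the start are shown for 4 members of different roles that were low in H1CKO and hold the half-site, and for Masp2, which was low in H1H2H2 instead and does not hold these letters in this window. Capitals mark the half-site on the strand of the gene, 5′ to 3′.
Afp (chr5:90490464-90490713, plus strand): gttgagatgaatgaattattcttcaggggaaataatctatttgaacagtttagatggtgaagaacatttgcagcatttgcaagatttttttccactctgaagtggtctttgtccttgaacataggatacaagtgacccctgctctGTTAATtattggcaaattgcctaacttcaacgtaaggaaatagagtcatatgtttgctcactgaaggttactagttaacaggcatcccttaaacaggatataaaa
Fga (chr3:83025903-83026152, plus strand): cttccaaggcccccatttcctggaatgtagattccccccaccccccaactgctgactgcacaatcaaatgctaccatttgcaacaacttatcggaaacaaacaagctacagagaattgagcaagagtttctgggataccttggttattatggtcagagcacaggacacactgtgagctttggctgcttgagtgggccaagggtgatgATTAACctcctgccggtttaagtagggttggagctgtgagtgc
Serpina1b (chr12:103738190-103738439, minus strand): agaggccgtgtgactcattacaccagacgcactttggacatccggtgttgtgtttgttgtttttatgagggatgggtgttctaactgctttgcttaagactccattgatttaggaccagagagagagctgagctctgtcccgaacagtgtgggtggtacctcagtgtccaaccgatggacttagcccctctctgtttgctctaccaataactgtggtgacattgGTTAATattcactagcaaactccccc
Itih1 (chr14:30943290-30943539, minus strand): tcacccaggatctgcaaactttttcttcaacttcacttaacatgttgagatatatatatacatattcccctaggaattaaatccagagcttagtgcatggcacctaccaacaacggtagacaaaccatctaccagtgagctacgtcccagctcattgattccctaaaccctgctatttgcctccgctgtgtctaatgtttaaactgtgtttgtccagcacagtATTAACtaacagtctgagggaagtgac
Masp2 (chr4:148602294-148602543, plus strand): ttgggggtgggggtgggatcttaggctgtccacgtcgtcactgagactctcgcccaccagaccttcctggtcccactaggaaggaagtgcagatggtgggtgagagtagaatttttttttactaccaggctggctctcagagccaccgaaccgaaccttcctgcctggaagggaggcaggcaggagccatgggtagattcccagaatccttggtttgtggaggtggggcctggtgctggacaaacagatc
The half-site begins 105 bases before the start in Afp, 43 in Fga, 26 in Serpina1b and 27 in Itih1. In H1CKO against control the median log2 fold change was -1.91 for the 12 members with the half-site and -1.36 for the 19 without it, from -2.94 to 3.60 and from -2.80 to 1.68. These ranges overlap for most of their length, and no test was made. Of the 12 with the half-site 9 were called lower and 2 higher, and of the 19 without it 15 lower and 1 higher. The 2 higher members with the half-site, Cp and Vtn, are not among the sequences shown.

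Libraries held 12019377 to 16824228 counts. Levels are read counts scaled to a common library size with TMM factors (CPM), and differences are log2 fold changes from edgeR's quasi-likelihood test, called at an adjusted p of 0.05. The p-values measure the spread between libraries, since the labels do not state that each came from a separate embryo or litter. Control 1 and control 2 have the same yolk sac number in their names. Hand1 was low in both mutant groups, at a log2 fold change of -2.86 (SE 0.445, edgeR adjusted p = 0.000202) in H1CKO and -2.55 (SE 0.387, edgeR adjusted p = 0.00482) in H1H2H2. A rise of Hand2 over control was called only for H1CKO (log2 fold change 0.93, SE 0.319, edgeR adjusted p = 0.0273). H1CKO 5 to 7 held 70.5, 72.8 and 91.8 CPM of it, above the 31.7 to 47.2 CPM of the control libraries. The H1H2H2 libraries ran from 23.6 to 81.0 CPM of Hand2 and overlapped control (log2 fold change 0.08, SE 0.3, edgeR adjusted p = 0.873). By Xist and Y-linked counts all 3 H1CKO libraries are male, while 3 of 4 H1H2H2 and 1 of 4 control libraries are male. The H1CKO libraries stood apart in markers of the embryo proper. The summed level of 9 heart genes ran from 1452 to 3675 CPM in H1CKO, from 11.0 to 25.8 CPM in H1H2H2 and from 15.1 to 67.3 CPM in control, with all 9 higher in H1CKO than in control by edgeR. All 7 tested neural and somite genes were also higher in H1CKO than in control (81.0 to 108.5 CPM in sum in H1CKO, 0.757 to 1.87 in H1H2H2 and 1.27 to 3.62 in control). The summed level of 11 visceral endoderm genes that encode no plasma protein, such as Hnf4a, Cubn and Mttp, ran from 3329 to 5548 CPM in H1CKO, from 13729 to 14668 CPM in H1H2H2 and from 11814 to 13264 CPM in control. All 11 were lower in H1CKO than in control, with a median log2 fold change of -1.28. In bulk RNA, fewer visceral endoderm cells and less RNA per cell cannot be told apart. A library of each of the other groups also stood apart: 7 parietal endoderm markers summed to 12827 CPM in H1H2H2 9 and 16677 CPM in control 2, while the remaining 9 libraries held 3241 to 4112 CPM, and 4 trophoblast and decidua markers to 87.1 CPM in H1H2H2 9 and 185 CPM in control 2, while the remaining 9 held 4.28 to 58.4 CPM. With both libraries left out, a setting chosen after the data were seen, 32 members were lower and 2 higher in H1CKO than in control, and 2 were lower and 1 higher in H1H2H2 than in control. Between the mutants 27 were then higher and 5 lower in H1H2H2. The number of all genes called in this setting is not given here, so these member counts have no background.

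Per kilobase of gene model, Afp stood first at 848 CPM per kb in H1CKO, 4057 in H1H2H2 and 3035 in control. Behind it in all 3 groups came Ttr, Rbp4, Trf, Fgb, Fgg, Fga and Serpinf2, in the same order of means. Of the 40 pairs of neighbours in the order, the libraries did not overlap in 7 pairs in H1CKO, 11 in H1H2H2 and 13 in control, so most neighbours in the order are not separated by their spread. Levels over 100 CPM per kb were found for 4 members in H1CKO, 8 in H1H2H2 and 8 in control. Levels under 1 CPM per kb were found for 12, 10 and 9 members in the same groups. Albumin itself, the main plasma protein of the adult and the gene next to Afp on chromosome 5, was near the bottom of the list. The files gave Alb 1.02, 0.458 and 1.22 CPM in H1CKO 5 to 7, 0.565, 0.311, 0.595 and 0.206 CPM in H1H2H2 8 to 11, and 4.05, 0.343, 0.372 and 0.463 CPM in control 1 to 4.

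**Figure D1:**
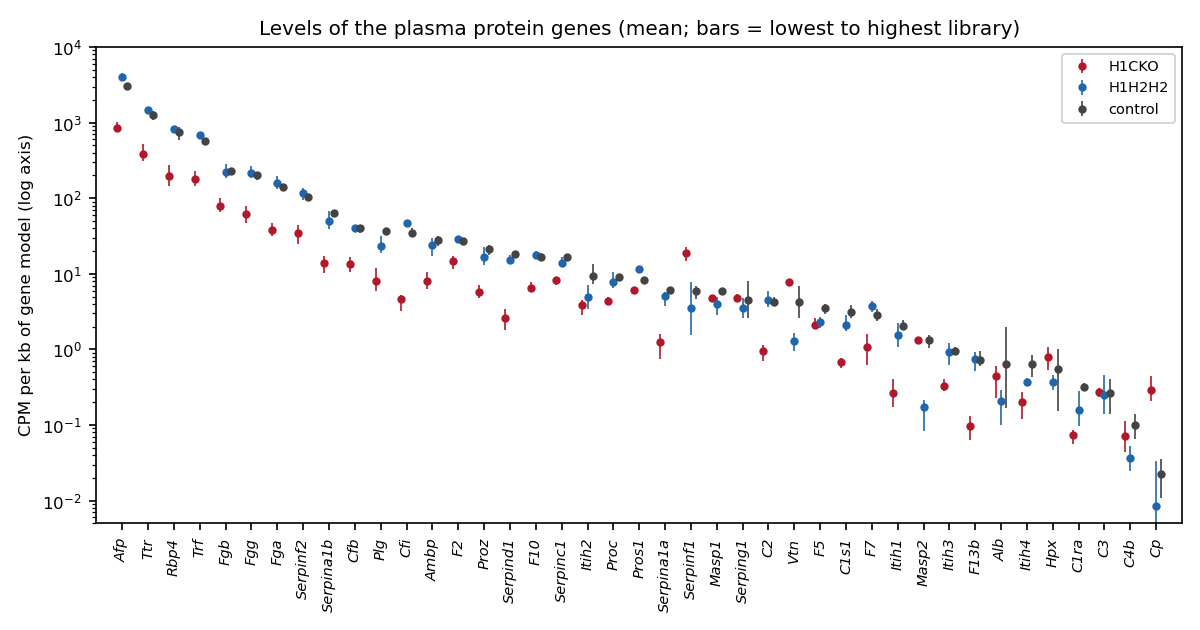
Mean level of each of the 41 members in CPM per kb of gene model (log axis) in H1CKO, H1H2H2 and control, ordered by the control mean, with bars from the lowest to the highest library. Afp leads in every group, at 848, 4057 and 3035 CPM per kb, and the H1CKO points lie below the others for most members.

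The members together took 0.39 ± 0.082% of all counts in H1CKO, 1.45 ± 0.0743% in H1H2H2 and 1.23 ± 0.081% in control (SD, n = 3, 4 and 4). Afp alone gave 48.6 ± 1.83% of the member counts in H1CKO, 55.9 ± 3.01% in H1H2H2 and 51.1 ± 1.97% in control. Without Afp the share of all counts was 0.201 ± 0.0490% in H1CKO, 0.641 ± 0.0436% in H1H2H2 and 0.600 ± 0.0373% in control. The H1CKO libraries lay below all others in each of these shares of all counts. Among the 31 members with at least 5 CPM in control, the median coefficient of variation was 23.7% in H1CKO, 16.8% in H1H2H2 and 9.87% in control. H1CKO 5 was the highest H1CKO library for 24 of the 31 and H1CKO 6 the lowest for 24. H1H2H2 8 was the highest H1H2H2 library for 23 of the 31.

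The first comparison asks what the loss of Hand1 under T-Cre does to these genes. In H1CKO 31 of the 40 tested members fell, 3 rose (Cp, Vtn and Serpinf1), and 6 were not called (Alb, Hpx, Serping1, C3, Masp1 and Masp2). Over all 14671 genes 52.6% were called, 25.6% lower and 27% higher, against 77.5% of the members lower and 7.5% higher. The median log2 fold change of the members was -1.58, against 0.03 over all genes tested. For 28 of the 31 members the fall was at least 2-fold, against 1101 of the 3753 genes called lower over all genes. The libraries of the groups did not overlap for 32 members that were lower in H1CKO and 3 that were higher, against 29.1% and 31.5% of all genes. The 11 visceral endoderm genes named above moved the same way, and the heart, neural and somite genes the other way. What part of the members' difference either of these carries was not tested, apart from the scaling to visceral endoderm genes given further on.

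**Figure D2:**
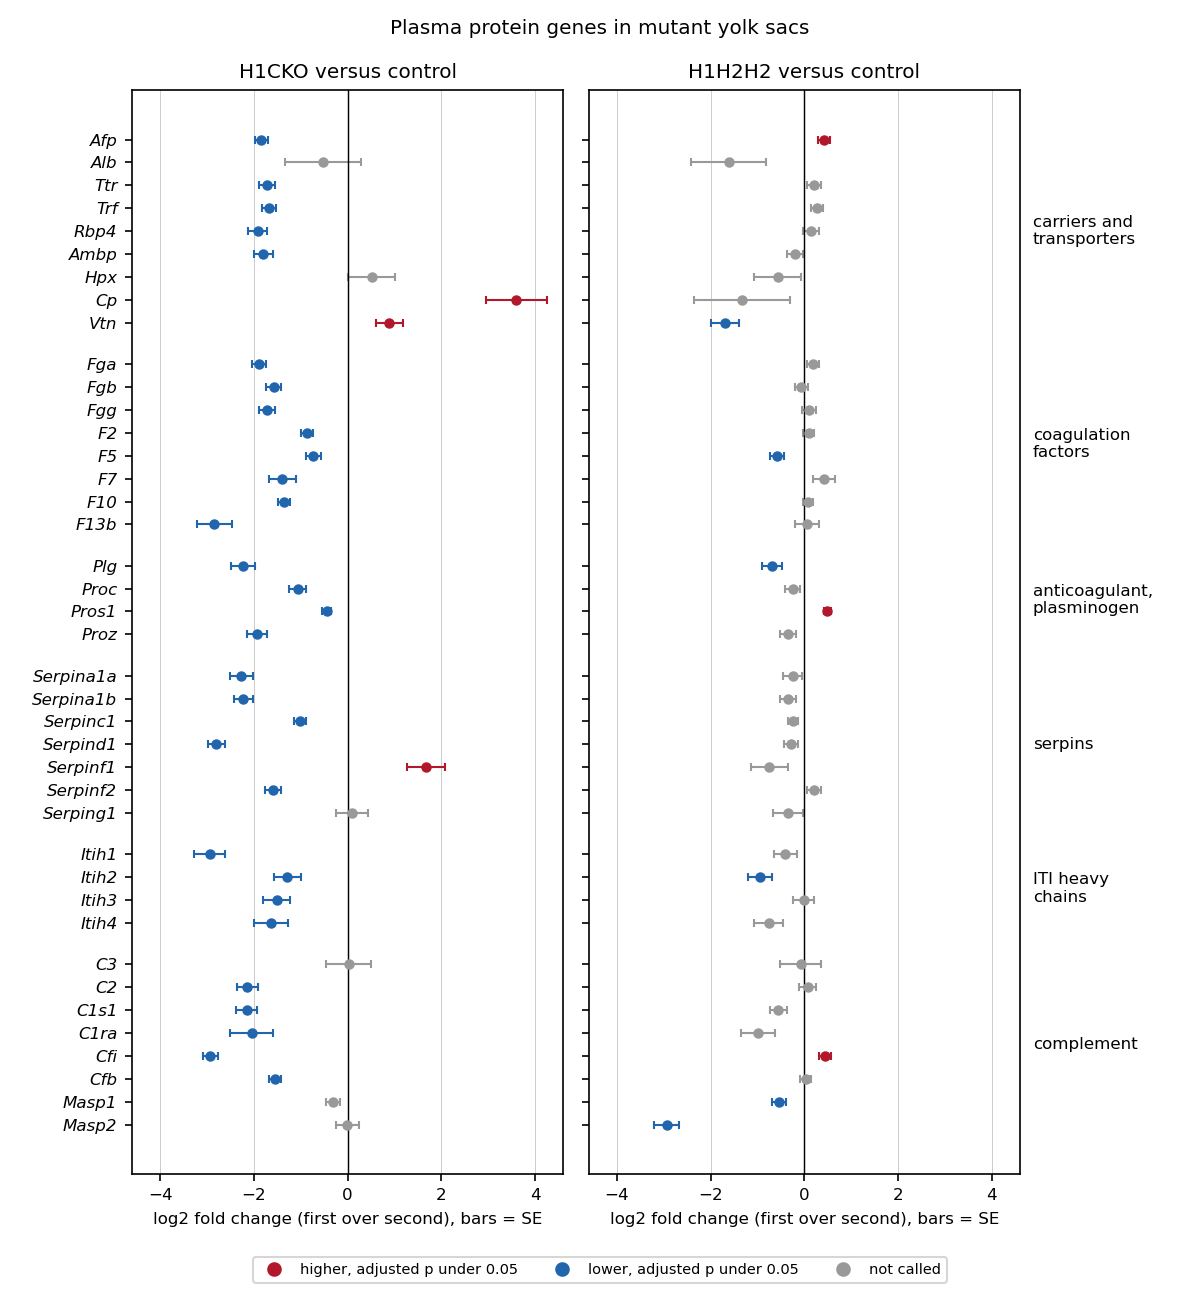
Log2 fold change with its SE (bars) of the 40 tested members in H1CKO versus control (left) and H1H2H2 versus control (right), grouped by role; red marks higher and blue lower at an adjusted p of 0.05, and grey not called. On the left 31 members are blue and 3 red, and on the right 6 are blue and 3 red.

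Of the 9 carriers tested, 5 fell and 2 rose. Afp encodes alpha-fetoprotein, the fetal counterpart of albumin (mm10 chromosome 5, 90490714 to 90508907, plus strand), and gave 2141, 1550.1 and 1614 CPM in H1CKO 5 to 7, against 6749, 5859, 5926 and 6793 CPM in control 1 to 4. Every H1CKO library lay below every control library, and the fall was 3.58-fold (log2 fold change -1.84, SE 0.136, edgeR adjusted p = 2.49e-06). Ttr, the carrier of thyroid hormone and of the retinol-binding protein, gave 638, 376 and 406 CPM in H1CKO 5 to 7, against 1555, 1321, 1626 and 1734 CPM in control 1 to 4. H1CKO 5 was the highest of its group here too, and the groups did not overlap (log2 fold change -1.72, SE 0.169, edgeR adjusted p = 1.03e-05). Rbp4 carries retinol (mm10 chromosome 19, 38116620 to 38125321, minus strand) and gave 353, 189 and 222 CPM in H1CKO 5 to 7, against 915, 757, 1152 and 1016 CPM in control 1 to 4. It was 3.77-fold lower (log2 fold change -1.91, SE 0.203, edgeR adjusted p = 1.59e-05). Trf, the iron carrier transferrin, fell to 419 ± 106 CPM in H1CKO, against 1333 ± 107 CPM in control (log2 fold change -1.67, SE 0.152, edgeR adjusted p = 6.82e-06). Of its exon bases, 89.5% overlap the gene model Gm20425 on the same strand, so its level depends on how shared reads were counted. Ambp, the precursor of bikunin, fell to 9.92 ± 2.67 CPM in H1CKO, against 34.4 ± 4.3 CPM in control (log2 fold change -1.8, SE 0.208, edgeR adjusted p = 2.71e-05).

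The 2 carriers that rose were low in control. Cp encodes the copper protein ceruloplasmin (mm10 chromosome 3, 19957054 to 20009750, plus strand) and gave 1.34, 2.75 and 1.3 CPM in H1CKO 5 to 7, against 0.071, 0.0687, 0.223 and 0.199 CPM in control 1 to 4. The sums were 70 counts in H1CKO and 8 in control, and the groups did not overlap (log2 fold change 3.6, SE 0.652, edgeR adjusted p = 0.000609). Vtn encodes vitronectin, an adhesive plasma protein (mm10 chromosome 11, 78499120 to 78502325, plus strand), and gave 14.6, 13 and 13.3 CPM in H1CKO 5 to 7, against 12.1, 4.95, 4.54 and 7.74 CPM in control 1 to 4. Control 1 lay close to the H1CKO libraries and the other 3 control libraries lower (log2 fold change 0.89, SE 0.294, edgeR adjusted p = 0.0224). Control 1 was also the control library with the most heart marker counts, 67.3 CPM in sum against 15.1 to 21.3 CPM in the other 3, and whether the 2 facts are linked was not tested. The Vtn call was lost without H1CKO 5, 6 or 7 or without control 2 or 3 (adjusted p from 0.0522 to 0.0678), and that of Cp when sex was added to the model (log2 fold change 2.77, edgeR adjusted p = 0.0522). Alb was not called: 57 of the 74 counts in control came from control 1. Hpx, which binds heme, was not called either (log2 fold change 0.52, SE 0.502, edgeR adjusted p = 0.407), with 46 counts in H1CKO and 47 in control.

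All 8 coagulation factors tested fell. The fibrinogen chains lie together on chromosome 3. Fga, the alpha chain (mm10 chromosome 3, 83026153 to 83033617, plus strand), gave 159, 108 and 119.6 CPM in H1CKO 5 to 7, against 489.5, 433, 484 and 501 CPM in control 1 to 4. The H1CKO libraries held less than any control library, a 3.7-fold fall (log2 fold change -1.89, SE 0.152, edgeR adjusted p = 4.3e-06). Fgb, the beta chain, gave 157, 102 and 108 CPM in H1CKO 5 to 7, against 356, 333, 393 and 378 CPM in control 1 to 4 (log2 fold change -1.58, SE 0.167, edgeR adjusted p = 1.58e-05). Fgg, the gamma chain, gave 119, 72.5 and 87.7 CPM in H1CKO 5 to 7, against 299, 269, 338 and 324 CPM in control 1 to 4 (log2 fold change -1.72, SE 0.172, edgeR adjusted p = 1.15e-05). The chains fell by similar amounts, but their proportions per kb were not the same. Fga made up 21.7 ± 0.588% of the 3 chains in H1CKO, 26.8 ± 0.53% in H1H2H2 and 24.7 ± 0.934% in control, and Fgb 43.9 ± 1.26%, 37 ± 0.984% and 40.3 ± 0.542% in the same groups (SD, n = 3, 4 and 4). The libraries of the 3 groups did not overlap for either chain, and no test was made on these proportions.

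Among the proteases and cofactors the falls differed in size. F2, the zymogen of thrombin (mm10 chromosome 2, 91625320 to 91636457, minus strand), fell to 30.4 ± 6.28 CPM in H1CKO, against 55.3 ± 3.35 CPM in control (log2 fold change -0.86, SE 0.123, edgeR adjusted p = 0.000113). F5, the cofactor of factor Xa, gave 13.8, 14.1 and 19.2 CPM in H1CKO 5 to 7, against 27.3, 21.9, 29.6 and 25.3 CPM in control 1 to 4 (log2 fold change -0.73, SE 0.159, edgeR adjusted p = 0.00226). These were the smallest falls of the role. F10, the zymogen of factor Xa, gave 20.9, 15.3 and 16.9 CPM in H1CKO 5 to 7, against 41.3, 41.8, 47.7 and 50.9 CPM in control 1 to 4 and fell 2.56-fold (log2 fold change -1.36, SE 0.125, edgeR adjusted p = 7.11e-06). F7 starts the extrinsic pathway, and its log2 fold change was -1.39; F7, F10 and Proz are neighbours on chromosome 8 and all fell. F13b, the carrier subunit of the fibrin cross-linking factor, gave 0.314, 0.153 and 0.229 CPM in H1CKO 5 to 7, against 1.42, 1.65, 2.23 and 1.59 CPM in control 1 to 4. It had the largest fall of the role from a low level, on 9 counts in H1CKO and 98 in control (log2 fold change -2.85, SE 0.373, edgeR adjusted p = 6.07e-05). The enzymes that carry out vitamin K dependent carboxylation of F2, F7, F10, Proc, Pros1 and Proz also fell in part. Ggcx, the carboxylase, and Vkorc1, the epoxide reductase, had log2 fold changes of -0.91 (edgeR adjusted p = 7.86e-06) and -1.34 (edgeR adjusted p = 5.19e-06), and Vkorc1l1 of 0.20 (edgeR adjusted p = 0.131).

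**Figure D3:**
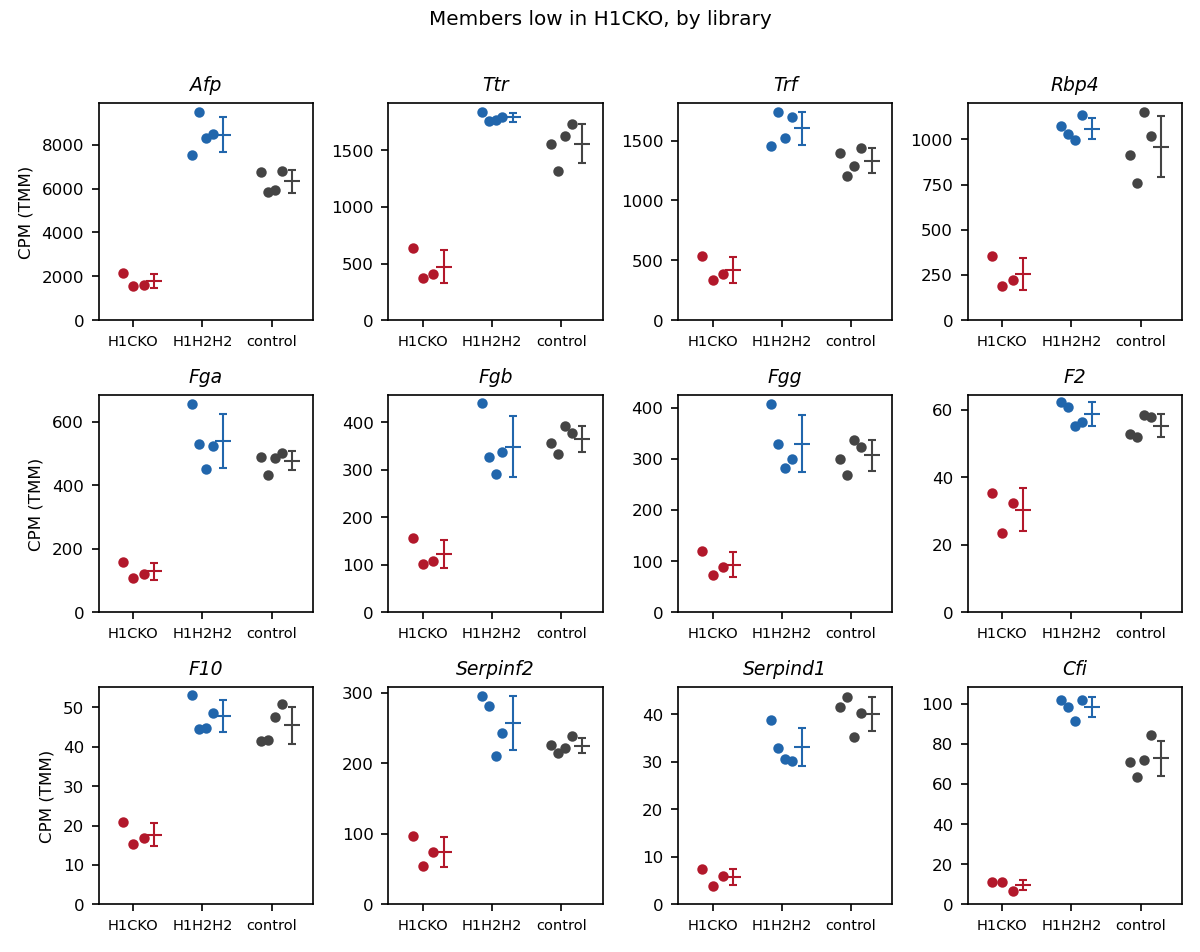
Level in CPM of 12 members in each library of H1CKO, H1H2H2 and control (points), with the mean and SD beside them (bars), each panel with its own axis from 0. In every panel the H1CKO points lie below all other points; for Afp they stand at 1550 to 2141 CPM, against 5859 to 6793 CPM in control.

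All 4 anticoagulant and fibrinolytic members fell. Plg, the zymogen of plasmin (mm10 chromosome 17, 12378609 to 12419384, plus strand), gave 32.4, 16.9 and 16.3 CPM in H1CKO 5 to 7, against 96.1, 94.1, 111 and 109 CPM in control 1 to 4. H1CKO 5 held more than H1CKO 6 and 7, and all 3 lay far under control (log2 fold change -2.23, SE 0.247, edgeR adjusted p = 2.06e-05). Of the exon bases of Plg, 15.2% overlap Slc22a3 on the other strand, and Slc22a3 stood at 3.00 CPM in H1CKO and 5.38 CPM in control. Proz, a cofactor in the inhibition of factor Xa, gave 16.8, 11.6 and 12.4 CPM in H1CKO 5 to 7, against 52.2, 42, 54.9 and 57.8 CPM in control 1 to 4 (log2 fold change -1.93, SE 0.209, edgeR adjusted p = 1.79e-05). Proc, the zymogen of activated protein C, fell to 7.47 ± 0.873 CPM in H1CKO, against 15.7 ± 1.21 CPM in control (log2 fold change -1.07, SE 0.18, edgeR adjusted p = 0.000358). Pros1, the cofactor of protein C, gave 20.1, 21.4 and 18.5 CPM in H1CKO 5 to 7, against 27, 28.4, 27.2 and 26.4 CPM in control 1 to 4. The fall of Pros1 was the smallest of all 31 (log2 fold change -0.45, SE 0.0885, edgeR adjusted p = 0.00112), and its groups did not overlap.

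Of the 7 serpins tested, 5 fell and 1 rose. Serpind1, heparin cofactor II, inhibits thrombin (mm10 chromosome 16, 17331371 to 17343572, plus strand) and gave 7.38, 3.89 and 6.03 CPM in H1CKO 5 to 7, against 41.5, 43.5, 35.2 and 40.2 CPM in control 1 to 4. It fell 6.95-fold (log2 fold change -2.8, SE 0.185, edgeR adjusted p = 1.34e-06). Serpinf2, the plasmin inhibitor alpha-2-antiplasmin and the serpin with the highest level in control, gave 96.4, 53.8 and 74.3 CPM in H1CKO 5 to 7, against 226, 214, 222 and 238 CPM in control 1 to 4 (log2 fold change -1.59, SE 0.171, edgeR adjusted p = 1.77e-05). Its neighbour on chromosome 11, Serpinf1, encodes pigment epithelium-derived factor and moved the other way. Serpinf1 (mm10 chromosome 11, 75410029 to 75422623, minus strand) gave 21.8, 29.6 and 33.4 CPM in H1CKO 5 to 7, against 9.02, 10.2, 9.23 and 6.95 CPM in control 1 to 4. All 3 H1CKO libraries lay above control (log2 fold change 1.68, SE 0.406, edgeR adjusted p = 0.00425), and adding a term for sex removed the call (log2 fold change 1.43, edgeR adjusted p = 0.0712). Serpina1a and Serpina1b encode forms of the elastase inhibitor alpha-1-antitrypsin. Serpina1b (mm10 chromosome 12, 103728156 to 103738189, minus strand) gave 24.3, 14.5 and 19.8 CPM in H1CKO 5 to 7, against 96.4, 89.3, 84.7 and 95 CPM in control 1 to 4 (log2 fold change -2.23, SE 0.2, edgeR adjusted p = 6.39e-06), and Serpina1a had a log2 fold change of -2.27. Their transcripts share up to 97.1% and 98.8% identity with others of the family, so reads may have been split between the copies. Serpinc1, antithrombin, fell to 17.7 ± 2.07 CPM in H1CKO, against 35.7 ± 2.1 CPM in control (log2 fold change -1.01, SE 0.119, edgeR adjusted p = 3.04e-05). Serping1, the C1 inhibitor, was not called (log2 fold change 0.09, SE 0.342, edgeR adjusted p = 0.85).

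All 4 inter-alpha-trypsin inhibitor heavy chains fell. Some proteins of this family are linked to bikunin and transferred to hyaluronan. Itih1 (mm10 chromosome 14, 30929180 to 30943289, minus strand) gave 1.26, 0.687 and 0.534 CPM in H1CKO 5 to 7, against 6.61, 5.77, 5.66 and 7.54 CPM in control 1 to 4. It rests on 32 counts in H1CKO and 367 in control. No member fell further (log2 fold change -2.94, SE 0.329, edgeR adjusted p = 2.18e-05), and its groups did not overlap. Itih3 and Itih4 lie beside it on chromosome 14 and had log2 fold changes of -1.52 and -1.63 (edgeR adjusted p = 0.000705 and 0.00261). Itih2, the chain with the highest level, gave 13.2, 8.78 and 14.1 CPM in H1CKO 5 to 7, against 42.3, 22.8, 23.2 and 28.8 CPM in control 1 to 4 (log2 fold change -1.28, SE 0.282, edgeR adjusted p = 0.00227). Control 1 was the highest library for Itih2, and even the lowest control library lay above all 3 H1CKO libraries.

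Of 8 complement members tested, 5 fell and 3 were not called. Cfi encodes factor I, which cleaves C3b and C4b (mm10 chromosome 3, 129836739 to 129875328, plus strand), and gave 11, 11 and 6.72 CPM in H1CKO 5 to 7, against 70.8, 63.6, 72 and 84.6 CPM in control 1 to 4. The fall was 7.6-fold (log2 fold change -2.93, SE 0.16, edgeR adjusted p = 5.67e-07). Cfb, the protease of the alternative pathway, gave 45.7, 29.1 and 37.7 CPM in H1CKO 5 to 7, against 109, 96, 115 and 118 CPM in control 1 to 4 (log2 fold change -1.54, SE 0.135, edgeR adjusted p = 5.56e-06). C2, its classical pathway counterpart beside it on chromosome 17, had a log2 fold change of -2.14 (edgeR adjusted p = 1.48e-05). Of the exon bases of Cfb and C2, 40.9% and 62.6% overlap the gene model Gm20547, so both may be affected by the counting. The C1 proteases C1s1 and C1ra fell (-2.16 and -2.04; edgeR adjusted p = 1.73e-05 and 0.00264). Both have a near-identical copy, and C1ra rests on 8 counts in H1CKO and 50 in control. C3, the central component, was low everywhere, with 54 counts in H1CKO and 78 in control, and was not called (log2 fold change 0.02, SE 0.477, edgeR adjusted p = 0.97). C4b, with 96.6% identity to C4a, was not tested and held 15 counts in H1CKO, 12 in H1H2H2 and 31 in control.

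The lectin pathway proteases were not called in H1CKO. Masp1 (mm10 chromosome 16, 23451785 to 23520590, minus strand) gave 13.3, 13 and 12.9 CPM in H1CKO 5 to 7, against 16.2, 16.7, 17.1 and 14.8 CPM in control 1 to 4. All 3 H1CKO libraries lay below control, by a small amount (log2 fold change -0.31, SE 0.156, edgeR adjusted p = 0.114), and Masp1 was called with only the 2 groups in the model or without H1H2H2 9. Masp2 (mm10 chromosome 4, 148602544 to 148615480, plus strand) gave 4.01, 4.43 and 4.35 CPM in H1CKO 5 to 7, against 3.34, 4.12, 4.62 and 5.03 CPM in control 1 to 4 and overlapped between the groups (log2 fold change -0.01, SE 0.24, edgeR adjusted p = 0.988).

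The second comparison asks what remains when Hand2 stands in place of Hand1. Most members, 31 of 40, were not called in H1H2H2. The other 9 moved in both directions: 3 rose (Afp, Pros1 and Cfi) and 6 fell (Vtn, F5, Plg, Itih2, Masp1 and Masp2). Over all genes 16.7% were called, 9.49% higher and 7.16% lower, against 7.5% of the members higher and 15% lower, so the share called higher is near the background. The median log2 fold change was -0.25, against -0.01 over all genes. Libraries did not overlap for 5 members that were higher and 8 that were lower, against 11% and 8% of all genes. This comparison uses the same control libraries as the first. Of the 9 calls, those of Pros1, Vtn and Masp2 held under every alternative run that keeps the threshold of 0.05, and the other 6 were each lost when sex was added to the model and when at least 1 library was left out. Control 1 and control 2, which have the same yolk sac number, were also summed to 1 library. The calls of Afp, Plg, Cfi and Masp1 were then lost.

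Masp2 encodes the serine protease that the lectin pathway uses to cut C4 and C2. It gave 0.565, 0.684, 0.264 and 0.688 CPM in H1H2H2 8 to 11, against 3.34, 4.12, 4.62 and 5.03 CPM in control 1 to 4. The sums were 33 counts in H1H2H2 and 245 in control. The highest H1H2H2 library held far less than the lowest control library, a 7.67-fold fall (log2 fold change -2.94, SE 0.266, edgeR adjusted p = 0.000194). In H1CKO its libraries overlapped those of control, as given above. Of the exon bases of Masp2, 47.3% overlap Tardbp, which is on the opposite strand and much more abundant; whether counting used strand is not given in the sources used here. Tardbp averaged 253.9 ± 29.5 CPM in H1CKO, 307.6 ± 58 CPM in H1H2H2 and 241.8 ± 8.76 CPM in control, with log2 fold changes against control of 0.07 in H1CKO and 0.35 in H1H2H2 (edgeR adjusted p = 0.686 and 0.0747). By library, Tardbp gave 224, 313, 340 and 353 CPM in H1H2H2 8 to 11, against 235 to 253 CPM in control. Whether shared reads bear on the Masp2 difference was not tested.

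Vtn gave 2.89, 2.05, 2.38 and 1.65 CPM in H1H2H2 8 to 11, against 12.1, 4.95, 4.54 and 7.74 CPM in control 1 to 4. All 4 H1H2H2 libraries lay below control (log2 fold change -1.71, SE 0.299, edgeR adjusted p = 0.00695), whereas in H1CKO Vtn was above it. Pros1 gave 34.7, 40.2, 39.8 and 38.5 CPM in H1H2H2 8 to 11, against 27, 28.4, 27.2 and 26.4 CPM in control 1 to 4. Every H1H2H2 library was above every control library (log2 fold change 0.49, SE 0.0797, edgeR adjusted p = 0.00583), and in H1CKO Pros1 was below. Afp gave 7529.7, 9503, 8323 and 8493 CPM in H1H2H2 8 to 11, against 6749, 5859, 5926 and 6793 CPM in control 1 to 4. The rise was 1.34-fold (log2 fold change 0.42, SE 0.119, edgeR adjusted p = 0.0355), and over leaving out each library the adjusted p ran from 0.0130 to 0.0941. Cfi gave 102, 98.4, 91.4 and 102 CPM in H1H2H2 8 to 11, against 70.8, 63.6, 72 and 84.6 CPM in control 1 to 4 (log2 fold change 0.44, SE 0.125, edgeR adjusted p = 0.0362), with adjusted p from 0.0156 to 0.103 over the same settings.

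The remaining falls in H1H2H2 were below 2-fold. Plg gave 87.7, 58.1, 51.2 and 56.6 CPM in H1H2H2 8 to 11, against 96.1, 94.1, 111 and 109 CPM in control 1 to 4, with H1H2H2 8 nearest to control (log2 fold change -0.69, SE 0.208, edgeR adjusted p = 0.0415). F5 gave 16.7, 14.1, 20.1 and 18.5 CPM in H1H2H2 8 to 11, against 27.3, 21.9, 29.6 and 25.3 CPM in control 1 to 4 (log2 fold change -0.59, SE 0.145, edgeR adjusted p = 0.0216), and its H1H2H2 libraries overlapped those of H1CKO. Itih2 gave 22.2, 14.4, 10.6 and 13.8 CPM in H1H2H2 8 to 11, against 42.3, 22.8, 23.2 and 28.8 CPM in control 1 to 4 (log2 fold change -0.95, SE 0.251, edgeR adjusted p = 0.0281), with H1H2H2 8 just under the lowest control library. Masp1 gave 13.6, 7.96, 12 and 11 CPM in H1H2H2 8 to 11, against 16.2, 16.7, 17.1 and 14.8 CPM in control 1 to 4 (log2 fold change -0.54, SE 0.144, edgeR adjusted p = 0.028). The number of members called lower moved with single libraries: it was 2 without H1H2H2 11 or without control 1, and 3 without H1H2H2 9, H1H2H2 10 or control 3. Over all genes the number called lower moved as well, from 264 to 2578 over leaving out each library. Without H1H2H2 8, 14 members were lower, the 6 above plus Cp, Proc, Proz, Serpina1b, Serpinc1, Serpinf1, C1s1 and C1ra, while over all genes 2578 were then called lower, against 1051 with it. Serpinf1 shows the spread most plainly, at 11.7, 2.3, 3.77 and 3.37 CPM in H1H2H2 8 to 11, against 9.02, 10.2, 9.23 and 6.95 CPM in control 1 to 4. Its log2 fold change was -0.75 with all libraries and -1.51 without H1H2H2 8 (edgeR adjusted p = 0.203 and 0.000627). H1H2H2 8 was also the H1H2H2 library with the most Hand2, 81.0 CPM against 23.6 to 35.9 CPM in the other 3, and whether this bears on the members was not tested.

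**Figure D4:**
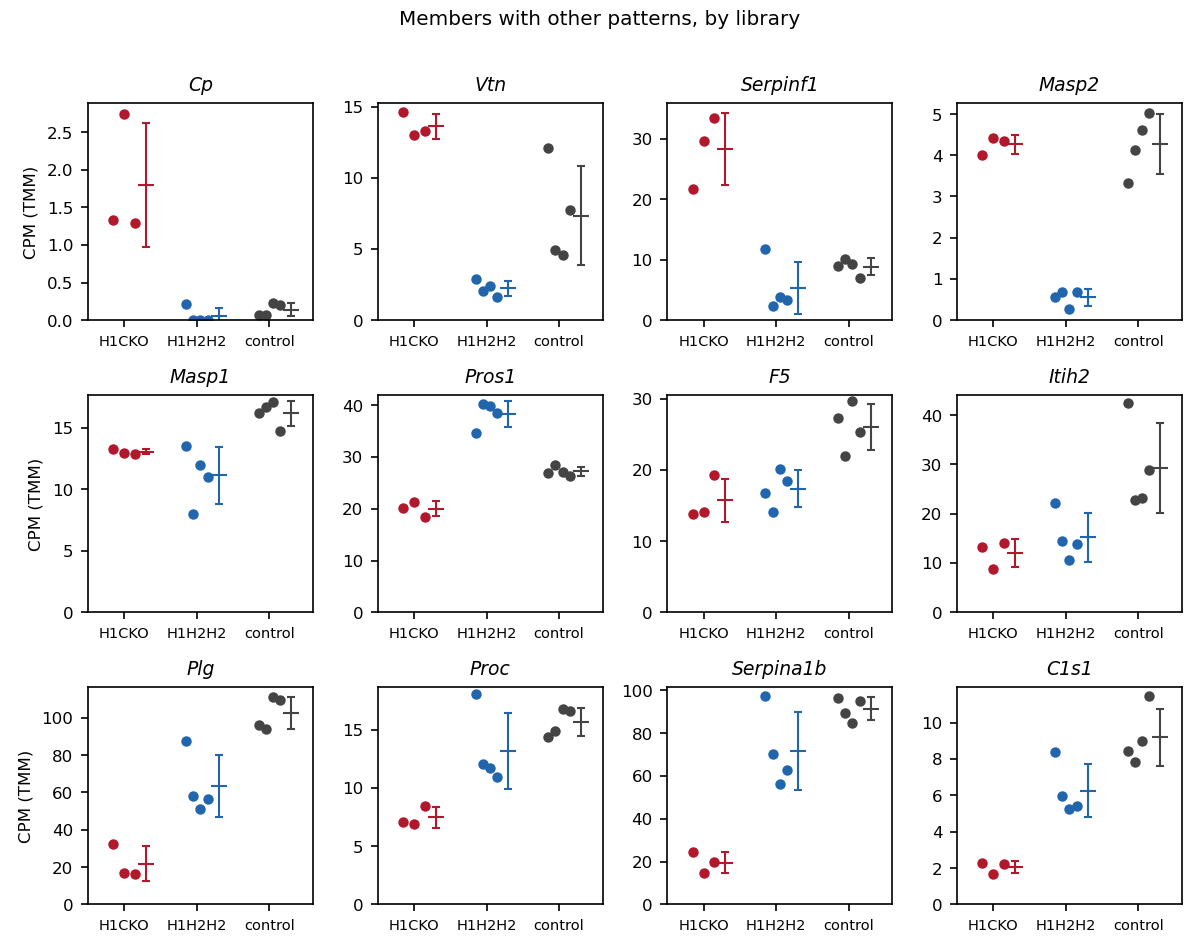
Level in CPM of 12 members that rose in H1CKO or moved in H1H2H2 or varied within it, in each library of H1CKO, H1H2H2 and control (points), with mean and SD (bars) and axes from 0. Masp2 stands at 0.264 to 0.688 CPM in H1H2H2 and at 3.34 to 5.03 CPM in control, and H1H2H2 8 is the highest H1H2H2 library for Serpinf1 and Proc.

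Set against each other, H1H2H2 was higher than H1CKO for 27 of 40 members and lower for 4, against 31.8% and 33.3% of all genes, 65% in all. Libraries did not overlap for 29 members that were higher and 5 that were lower, against 29.7% and 32.6% of all genes. The median was 1.52 on the log2 scale for the members and -0.03 for all genes. Cfi differed most among the members that were higher, at 98.4 ± 4.92 CPM in H1H2H2 and 9.57 ± 2.47 CPM in H1CKO (log2 fold change 3.36, SE 0.162, edgeR adjusted p = 1.49e-07). F13b and Itih1 followed, with log2 fold changes of 2.9 and 2.54. The 4 that were lower in H1H2H2 were Cp, Vtn, Serpinf1 and Masp2, with log2 fold changes of -4.93, -2.6, -2.43 and -2.93. Cp had 3 counts in H1H2H2, all in H1H2H2 8, and 70 in H1CKO, a ratio of 0.0278 per library size with an exact 95% interval of 0.00561 to 0.0848 that covers counting error only. F5, Itih2 and Masp1, which were lower in H1H2H2 than in control, were not called between the mutants (0.14, 0.34 and -0.23).

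Several members of low to middle level that were described only in part above are given here between the mutants. F7 gave 5.72, 6.59, 7.2 and 8.18 CPM in H1H2H2 8 to 11, against 2.98, 1.15 and 1.83 CPM in H1CKO 5 to 7 (log2 fold change 1.8, SE 0.283, edgeR adjusted p = 0.000139). Serpina1a gave 11.2, 10, 7.2 and 10.9 CPM in H1H2H2 8 to 11, against 2.67, 1.45 and 3.13 CPM in H1CKO 5 to 7 (log2 fold change 2.02, SE 0.243, edgeR adjusted p = 1.76e-05). Itih3 gave 3.39, 1.74, 2.51 and 2.89 CPM in H1H2H2 8 to 11, against 0.785, 0.84 and 1.14 CPM in H1CKO 5 to 7 (log2 fold change 1.5, SE 0.28, edgeR adjusted p = 0.00051). These members hold 36 to 94 counts in H1CKO. C2 gave 9.53, 10.8, 15.6 and 11.3 CPM in H1H2H2 8 to 11, against 2.98, 1.83 and 2.82 CPM in H1CKO 5 to 7 (log2 fold change 2.21, SE 0.223, edgeR adjusted p = 5.03e-06). C1s1 gave 8.4, 5.97, 5.22 and 5.43 CPM in H1H2H2 8 to 11, against 2.28, 1.68 and 2.21 CPM in H1CKO 5 to 7 (log2 fold change 1.6, SE 0.23, edgeR adjusted p = 6.97e-05). Proc gave 18.1, 12.1, 11.7 and 10.9 CPM in H1H2H2 8 to 11, against 7.07, 6.87 and 8.47 CPM in H1CKO 5 to 7 (log2 fold change 0.82, SE 0.179, edgeR adjusted p = 0.00156), the smallest log2 fold change of these 6. The libraries of the mutants did not overlap for any of the 6.

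Scaling each library to the 11 visceral endoderm genes asks how the members moved relative to genes of that layer. Whether every member is expressed there was not tested. This scaling raises the median log2 fold change of all genes in H1CKO by 1.30, to 1.33, and 87.5% of all genes were then called higher and 1.68% lower. Of the 40 members, 20 were still lower in H1CKO, 11 were higher and 9 were not called, with a median of -0.32. The largest relative falls were Itih1 (log2 fold change -1.7, SE 0.315, edgeR adjusted p = 0.000118), Cfi (log2 fold change -1.63, SE 0.17, edgeR adjusted p = 5.11e-07), F13b (log2 fold change -1.61, SE 0.422, edgeR adjusted p = 0.00223) and Serpind1 (log2 fold change -1.55, SE 0.186, edgeR adjusted p = 1.78e-06). Serpina1a, Plg and Serpina1b followed at -1.0, -0.99 and -0.96. Rbp4, Fga, Afp, Ttr and Trf were lower by less, at -0.66, -0.62, -0.57, -0.46 and -0.41. F2, F5 and Pros1 fell under TMM scaling and were higher relative to the visceral endoderm genes (log2 fold changes 0.41, 0.59 and 0.85). F7, F10, Proc, Serpinc1, Itih2, Itih3, Itih4 and C1ra fell under TMM scaling and were not called here. The 31 members that fell under TMM scaling ranged from -1.70 to 0.85 on this scale, with 20 lower and 3 higher. The 11 scaling genes themselves ranged from -0.58 to 0.68, with 2 lower and 2 higher. Of the members called lower on this scale, Afp, Ambp, Ttr, Fgg, Trf, Serpinf2, Fgb and Cfb lie within that range. Of those called higher, F2 and F5 do. With Cubn, Lrp2 and Amn as the only scaling genes, Ambp, Cfb, Fgb, Fgg, Serpinf2 and Trf were no longer called lower.

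**Figure D5:**
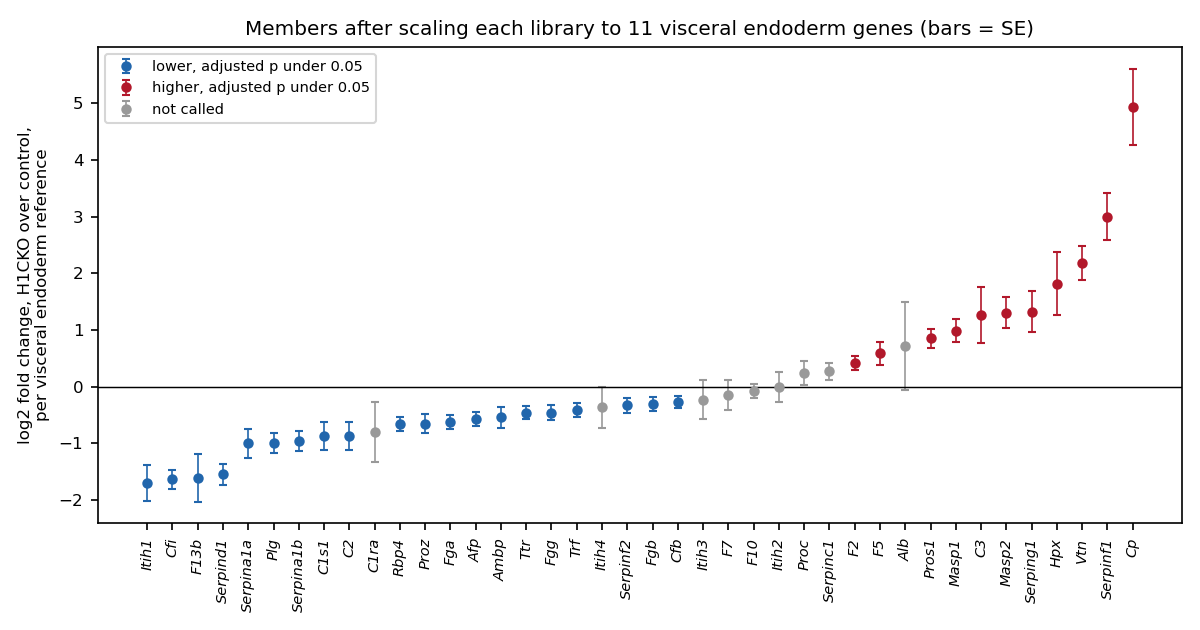
Log2 fold change in H1CKO over control of the 40 tested members after scaling each library to 11 visceral endoderm genes, ordered by size, with SE (bars); blue marks lower and red higher at an adjusted p of 0.05. The members run from Itih1 at -1.70 to Cp at 4.94, with 20 lower and 11 higher.

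In H1H2H2 the same scaling lowers the median of all genes by 0.18 on the log2 scale, and 9 members were lower and 0 higher by edgeR, against 7.7% and 0.988% of all genes. At an unadjusted p under 0.05, 18 members were lower and 0 higher. The share of all genes at that unadjusted threshold is not given here. These counts therefore have no background and cannot be weighed against the shift of all genes given above. The 9 were Masp2 (log2 fold change -3.12, SE 0.302, edgeR adjusted p = 0.00011), Vtn, Itih2, Plg, F5, C1s1, Masp1, Serpina1b and Proz. Afp, Pros1 and Cfi, higher under TMM scaling, were not called relative to the visceral endoderm genes (0.23, 0.31 and 0.26). For Afp the adjusted p was then 0.181.

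Lists of other genes of the same systems were read beside the members, with no test between the lists. Of 21 other coagulation and fibrinolysis genes tested (26 listed), 11 fell and 10 were not called, with a median log2 fold change of -1.0. The library with the most parietal endoderm markers, control 2, was also the highest for these genes, at 882 CPM in sum, against 506 to 529 CPM in the other 3 control libraries. Thbd and Plat stand on both lists. With control 2 left out, 10 fell and the median was -0.60. The genes that fell include Gas6, a vitamin K dependent ligand (-2.23, edgeR adjusted p = 6.70e-06). Of 17 other complement genes tested (29 listed), 13 fell and 4 were not called, with a median of -1.42, such as Cd59a, which blocks the membrane attack complex (-1.51, edgeR adjusted p = 2.23e-06), and the lectin Mbl2 (-1.42, edgeR adjusted p = 1.30e-05). Of 15 other plasma protein genes tested (31 listed), 11 fell and 4 were not called, with a median of -1.37, such as Cpn1, the active subunit of carboxypeptidase N (-1.85, edgeR adjusted p = 1.34e-06). Relative to the visceral endoderm genes, fewer genes of these lists were called lower in H1CKO than under TMM scaling, with 1 lower and 9 higher of the other coagulation genes (median 0.21), 2 lower and 6 higher of the other complement genes (median -0.15), and 1 lower and 3 higher of the other plasma protein genes (median -0.09). For the members these counts were 20 lower and 11 higher, as given above. In H1H2H2, 0 of the 21 other coagulation genes were called by edgeR, DESeq2 or limma-voom, and 4 had an unadjusted edgeR p under 0.05 (Plau and Vkorc1l1 higher, Kng1 and Vkorc1 lower). Among the other complement genes Mbl1 was higher (1.16, edgeR adjusted p = 0.0277) and Cd59a lower (-0.52, edgeR adjusted p = 0.00835). Of the other plasma protein genes Cpn2 was lower (-0.85, edgeR adjusted p = 0.0233), as was Serpina1e, a gene with a near-identical copy and under 1 CPM on average in each group (edgeR adjusted p = 0.0471). The Mbl1 call was lost without H1H2H2 9, and those of Cpn2 and Serpina1e without H1H2H2 9 or without control 2.

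Markers of the hepatic bud, the next site of plasma protein synthesis, were read beside these results. Of 6 listed, 4 were higher in H1CKO than in control (Hhex, Prox1, Onecut1 and Tbx3) and 1 was lower, and their summed level overlapped between the groups, at 334.6 to 380.9 CPM in H1CKO, 288.8 to 445.1 CPM in H1H2H2 and 324.5 to 426.5 CPM in control. Prox1 stood at 20.9 ± 4.93 CPM in H1CKO, 3.50 ± 0.567 CPM in H1H2H2 and 5.98 ± 3.84 CPM in control. Control 1 held 11.65 CPM of Prox1, against 3.37 to 5.01 CPM in the other control libraries. Of 6 macrophage genes 3 were lower in H1CKO, and of 8 genes of the mesothelium and extraembryonic mesoderm 6 were lower and 1 higher. Of the 6 hepatic bud markers 2 were lower in H1H2H2 than in control by edgeR, Onecut1 (-1.68, edgeR adjusted p = 0.0206) and Onecut2 (-1.11, edgeR adjusted p = 0.0272), and 3 by DESeq2 and by limma-voom; the edgeR calls were lost without H1H2H2 9. Onecut1 thus had the directions of Vtn, higher in H1CKO and lower in H1H2H2. Control 1 was the highest control library for both genes. For Onecut1 it held 5.40 CPM, against 1.85 to 2.68 CPM in the other control libraries and 0.622 to 1.69 CPM in H1H2H2. What part these cell types take in the members' differences was not tested.

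The authors' deposited table of fold changes and FDR values gave the same calls for 40 of the 41 members in H1CKO against control and for 40 of 41 in H1H2H2 against control. The exception was C4b, for which the authors' deposited table gives FDR values and which was not tested here. In that table C4b has a log2 fold change of -0.53 (FDR 0.411) in H1CKO and of -1.41 (FDR 0.0421) in H1H2H2. Between the mutants 39 of 41 calls were the same, and the authors' deposited table also called Itih4.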

How the data were processed

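Bulk RNA sequencing of mouse yolk sac at embryonic day 9.5 gave 11 libraries (3 H1CKO, 4 H1H2H2 and 4 control), grouped by the genotype labels. The H1CKO labels give fx/fx in the genotype and a knockout allele over a floxed allele in the description, and the control labels give fx/+ in the genotype and WT in the description; groups follow the genotype field. The submitters' processing notes name the build mm10 and the tools edgeR, featureCounts, Subread 1.5.1 and STAR 2.5.2b without saying what each did. Raw read counts per gene were deposited by the authors, per the file headers. The authors also deposited log2 FPKM values, log2 fold changes, and a p-value and FDR per gene and comparison, which were used for comparison only.

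Counts were filtered with filterByExpr and scaled by TMM, and 1 quasi-likelihood model over all 11 libraries was fitted with edgeR 4.0.16 in R 4.3.3. Each contrast was adjusted by Benjamini and Hochberg over 14671 genes and called at 0.05. The SE is the log2 fold change over the square root of F. The common biological coefficient of variation was 0.171. Totals were 12019377 to 16824228 counts per library. The scripts were tested on simulated data. A second scaling set each library to the geometric mean of 11 visceral endoderm genes. Alternatives were DESeq2 1.42.0, limma-voom 3.58.1, other scalings and filters, a term for sex, an adjusted p of 0.01, control 1 and 2 summed, only 2 groups in the model, each library left out and, added later, control 2 and H1H2H2 9 both left out. A further choice of scaling genes is not reported here. Near-identical copies share at least 95% identity over 300 bases and 30% of a transcript (BLAST+ 2.17.0).

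Members and lists were chosen with earlier results of these data known. Described in full are, per role, the 2 members with the smallest p in H1CKO against control and the 2 with the highest control mean, and every member called in H1H2H2, called higher against control, or not tested. The rule also covered members higher in H1H2H2 than in H1CKO, of which only some are given in full for that comparison. From other lists up to 3 genes with the smallest p per comparison could be named; Kng1, Plau, Vkorc1l1 and some hepatic bud genes were named after their values were seen.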

Additional observations from a re-analysis of the deposited data

Results flagged for a closer look

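In 81 pairs of a member and a group of 4 libraries, 3 libraries stood further from the rest than Dixon's test allows at the 95% level, where chance gives about 1 in 20. Alb in control 1 was 4.049 CPM, whereas the other 3 control libraries gave 0.3434 to 0.4632 CPM. Proc in H1H2H2 8 was 18.07 CPM, whereas the other 3 H1H2H2 libraries gave 10.94 to 12.06 CPM. Serpinf1 in H1H2H2 8 was 11.72 CPM, whereas the same 3 libraries gave 2.3 to 3.77 CPM. The cause of these values was not tested.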

How the results depend on the processing

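No paired analysis was possible because replicate numbers are not shared between the groups. In H1CKO against control, leaving out 1 library at a time gave 31 to 32 members lower and 2 to 3 higher. Over all genes the same settings gave 3088 to 4341 lower and 3142 to 4111 higher. With a term for sex 1 member was higher in H1CKO. In H1H2H2 against control the counts ran from 2 to 14 lower and from 1 to 3 higher. Over all genes this comparison gave 264 to 2578 lower and 430 to 2477 higher. There, 1 member was higher at an adjusted p of 0.01, with a term for sex and with control 1 and 2 summed, and 2 were lower at an adjusted p of 0.01 and with a term for sex. Between the mutants 27 to 28 members were higher and 4 to 5 lower in H1H2H2, against 4111 to 4996 higher and 4267 to 5054 lower over all genes. Relative to visceral endoderm genes, leaving out 1 library gave 17 to 20 members lower and 9 to 12 higher in H1CKO and 3 to 17 lower in H1H2H2. Counts over all genes are not given for these runs, so these member counts have no background. The choice of Cubn, Lrp2 and Amn as the only scaling genes, given above, is not part of these ranges. With control 2 and H1H2H2 9 both left out, chosen after seeing the data, 2 members were lower and 1 higher in H1H2H2, and 3 lower relative to visceral endoderm genes. Counts over all genes are not given for that setting. Without Rn45s and globins the members held 1.591% of counts in H1H2H2 and 1.351% in control. The cause of these changes was not tested.

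Changes of sign were seen for members not called in either direction. In H1CKO, Alb was at 0.22 with limma-voom and 0.65 with a term for sex, C3 at -0.020 without a filter and -0.015 with 2 groups, and Masp2 at 0.060 with upper-quartile scaling, 0.0095 with limma-voom and 0.0016 with the 1 CPM filter. In H1H2H2, a term for sex put Fgg at -0.020, F13b at -0.050 and Cfb at -0.037. Summing control 1 and 2 put Itih3 at 0.013, C3 at 0.091 and Cfb at -0.0061, and upper-quartile scaling put Cfb at -0.025. Leaving out 1 library, log2 fold changes in H1CKO ran from -0.128 to 0.509 for Serping1, -0.215 to 0.243 for C3 and -0.152 to 0.0567 for Masp2. In H1H2H2 they ran from -0.212 to 0.0122 for Fgb, -0.0340 to 0.166 for Fgg, -0.00061 to 0.121 for F10, -0.0782 to 0.185 for F13b, -0.555 to 0.0964 for Serping1, -0.178 to 0.129 for Itih3, -0.526 to 0.175 for C3, -0.0962 to 0.142 for C2 and -0.0411 to 0.0534 for Cfb. Between the mutants C3 ran from -0.524 to 0.120. Without control 2 and H1H2H2 9, Itih3 was at 0.20, C3 at 0.12 and Cfb at -0.051 in H1H2H2. Depth limits the 14 members under 100 summed counts in H1CKO, 8 in H1H2H2 and 7 in control, Itih1 and F13b in H1CKO and Masp2 in H1H2H2 among them.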
